A study of Schizosaccharomyces pombe with 24 samples.

Results

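The genes clr4, swi6, mst2 and set1 are the chromatin regulators whose deletions define the genotypes of this fission yeast (Schizosaccharomyces pombe) series. They were chosen by name from the deposited annotation that carries the reporter in the mating-type region, where each name matched 1 gene, giving 4 of 12633 genes. Of those 12633 genes, 5113 were protein-coding, and these form the background for every share below. The 24 ChIP-seq libraries (antibody labelled 9me2 or 9me3, for methylation of histone H3 lysine 9, 1 library in each of 24 groups) came from cells grown in YEA at 32 °C, and all strains carried 10 tet operators with ade6+, in place of ura4 at the ectopic site or of cenH at the endogenous site. The genotypes were swi6D mst2D set1D, swi6D mst2D, swi6D set1D and swi6D (4 libraries each, 2 per site), mst2D set1D and clr4D (2 libraries each, ectopic site alone) and WT (4 libraries, 2 per site), where D stands for a deletion. No H3K9 methylation value per library was analysed here, so the values below are lengths, distances and counts in genome annotations. They have no replicate error and no test was made.

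Heterochromatin of fission yeast is built by a write-and-read cycle. Clr4, a relative of Suv39 enzymes, methylates histone H3 at lysine 9. Swi6, an HP1 protein, binds the methylated tail through its chromodomain and helps the mark to be kept through cell division. Mst2, an acetyltransferase of histone H3, and Set1, the methyltransferase of histone H3 lysine 4, belong to active chromatin, and Mst2 is known to oppose silencing. The labels do not say how each deletion was made, which bases it removed or whether a strain is 1 clone. The coding span (start codon to stop codon, introns included) was therefore taken as a stand-in for a deletion.

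A deletion of the coding span touched another annotated gene at clr4, mst2 and set1 and none at swi6. The other gene was a long non-coding RNA gene (lncRNA) on the opposite strand at clr4 (SPNCRNA.4728) and set1 (SPNCRNA.6837). At mst2 it was the protein-coding gene sec3, an exocyst subunit, of which only 3' untranslated sequence was touched. So 3 of 4 regulators had a coding span overlapped by at least 1 base, against 81.7% of the 5113 protein-coding genes. All 3 overlaps were with genes of the opposite strand, a situation shared by 81.4% of protein-coding genes. Being overlapped is thus the usual state in this annotation, and swi6 is among the 18.3% of genes without it. The kind of partner was less usual at mst2: 1 of 4 regulators overlapped a protein-coding gene with its coding span, against 14.8% of all. An opposite-strand non-coding RNA gene lay over the coding span of 2 of 4, against 71.3%.

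The ends of the coding spans are shown because they mark what such a deletion would remove. They were read from the reference assembly ASM294v3 at its own coordinates, all on the minus strand, 5′ to 3′, with the start or stop codon in capitals. The starts lie at II:458018-458047 (clr4), I:1703972-1704001 (swi6), I:2366804-2366833 (mst2) and III:415498-415527 (set1). The stops lie at II:456575-456604 (clr4), I:1703015-1703044 (swi6), I:2365447-2365476 (mst2) and III:412765-412794 (set1).
clr4 start: ATGtcgcctaaacaagaggagtatgaagtt
swi6 start: ATGaagaaaggaggtgttcgatcttatcgg
mst2 start: ATGccggcgactattttgaaatccacagcc
set1 start: ATGgattttaatacctctacgcggtcgaaa
clr4 stop: gctaattgtcgtggctggcttttcggtTAA
swi6 stop: agccacttaacgttccgtgaaaatgaaTAA
mst2 stop: gataactctcatcatctggattccgttTAG
set1 stop: gctccaacatgtcgtggctatttaaacTAG
The stop codon was TAA in clr4 and swi6 and TAG in mst2 and set1. Read whole from ASM294v3, the coding sequences held 490, 328, 407 and 920 codons before the stop codon for clr4, swi6, mst2 and set1, with 0 internal stops in each.

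**Figure D1:**
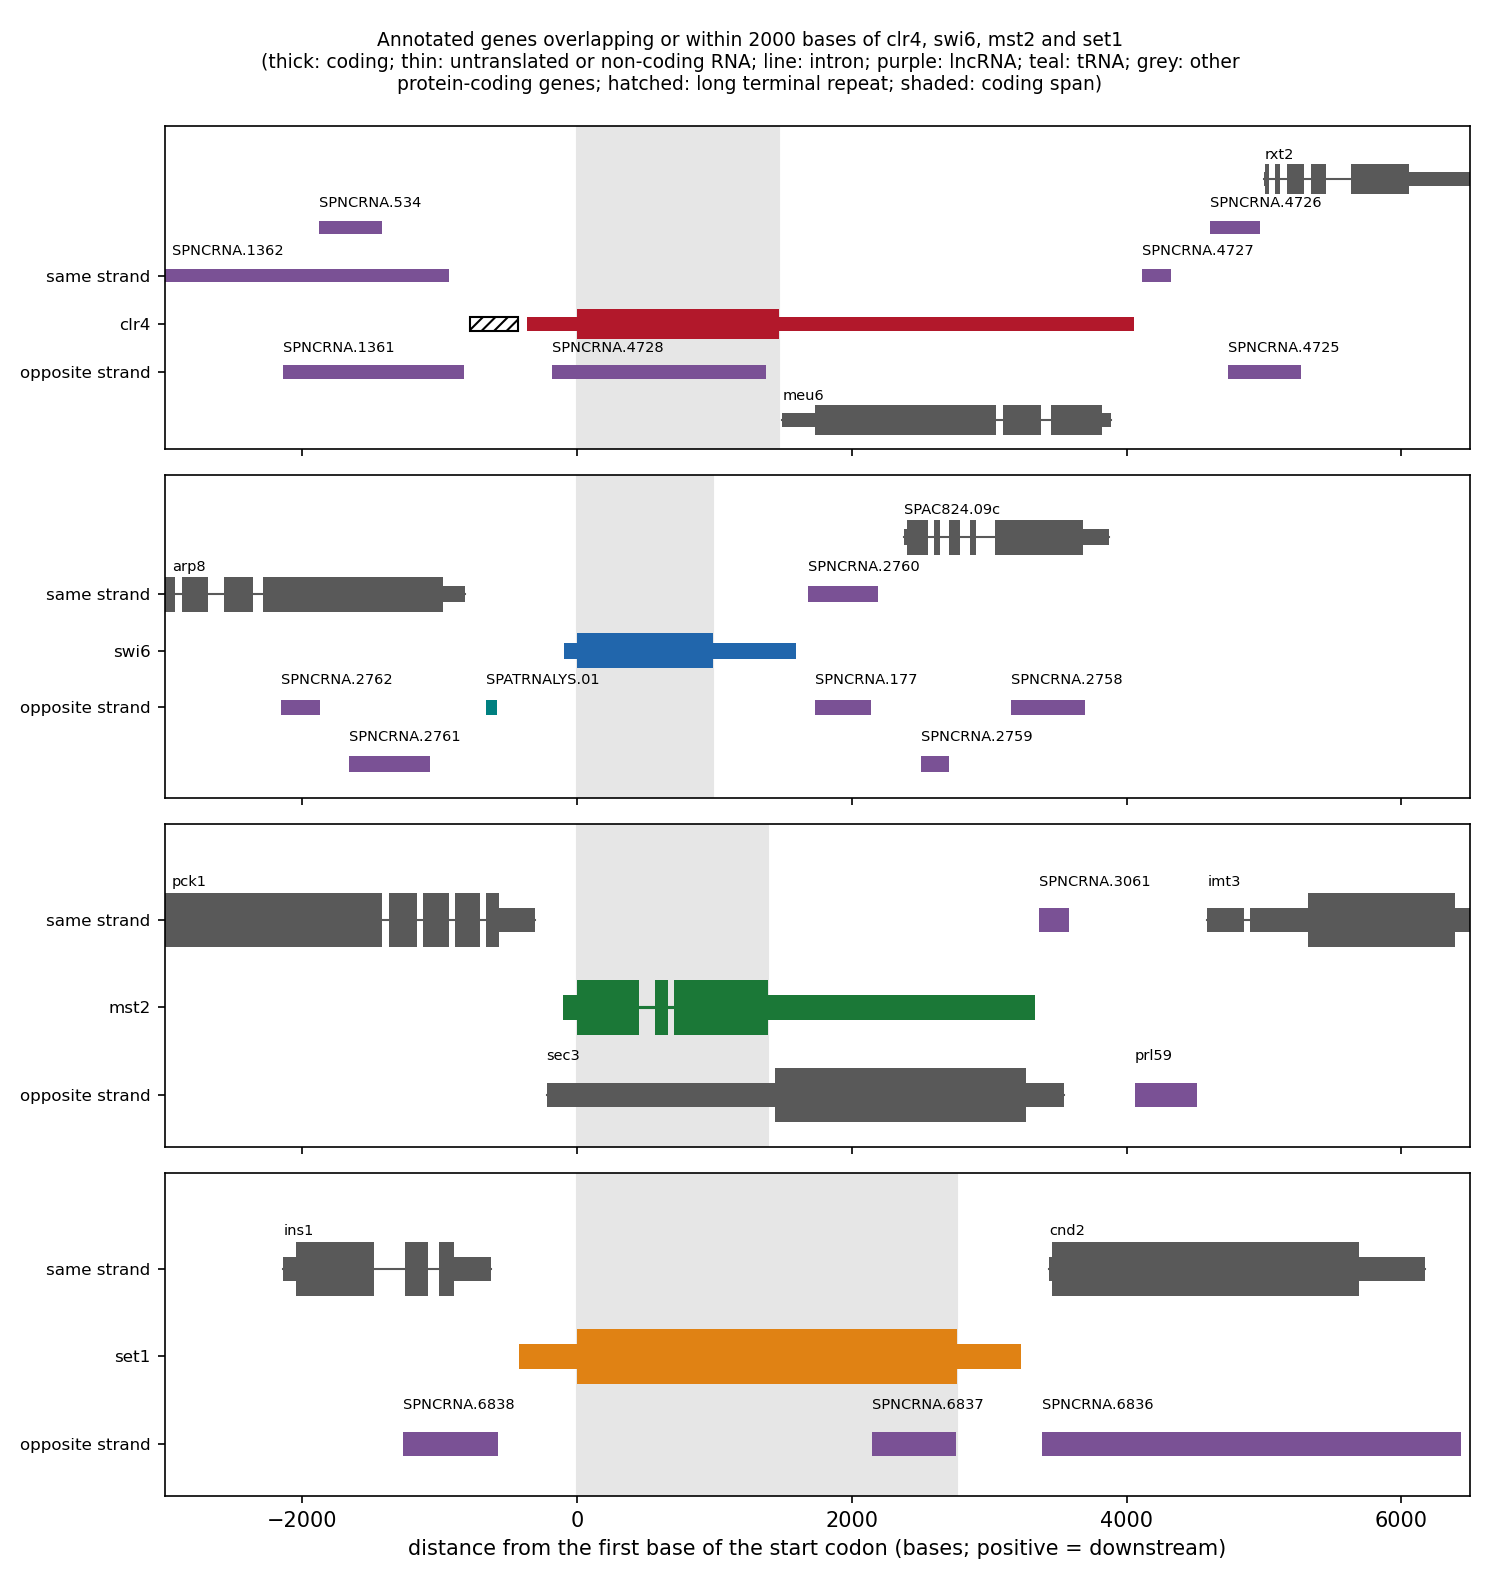
Map of the 4 loci, drawn so that each regulator reads from left to right, with the distance from its start codon in bases on the x axis and genes of the same and of the opposite strand above and below it. The shaded coding span meets SPNCRNA.4728 at clr4, sec3 at mst2, SPNCRNA.6837 at set1 and no gene at swi6.

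The clr4 gene (SPBC428.08c, chromosome II, 453996 to 458410, minus strand) was 4415 bases long, of which 1473 (33.4%) coded for protein. It had no intron. Its 5' untranslated part was 363 bases and its 3' untranslated part 2579 bases. Only 1.19% of the 4725 genes with an annotated 3' untranslated part had one at least as long, and the median was 261 bases. Most of the length of clr4 therefore lay behind its stop codon.

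That 3' untranslated part contained the whole of meu6 (SPBC428.07, 454161 to 456553, plus strand), a gene for a pleckstrin homology domain protein. All 2393 bases of meu6, including its 1956 coding bases and both of its introns, were inside it. The meu6 gene ended 21 bases before the clr4 stop codon, so a deletion of the clr4 coding span took 0 of its bases. A deletion of the whole annotated clr4 gene would take 100% of meu6. Whether a clr4 deletion also takes meu6 thus depends on where behind the stop codon it ends.

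Within the clr4 coding span lay SPNCRNA.4728 (456671 to 458233, plus strand), an antisense lncRNA gene of 1563 bases. It covered 1377 bases of the coding span (93.5%), from 96 bases inside the stop codon end to the start codon, and ran another 186 bases into the 5' untranslated part. A coding-span deletion would take 88.1% of it and leave those 186 bases. The covered share was 93.5% at clr4 against a median of 64.3% over all protein-coding genes, and 29.4% of them had a share at least as high.

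The other 7 genes within 2000 bases of clr4 did not touch it. Downstream lay the lncRNA genes SPNCRNA.4727, SPNCRNA.4726 and SPNCRNA.4725 at 59, 556 and 688 bases. Next came rxt2, for a subunit of Clr6 and Rpd3L histone deacetylase complexes, at 950 bases. Upstream lay 3 further lncRNA genes, SPNCRNA.1361, SPNCRNA.1362 and SPNCRNA.534, at 461, 571 and 1058 bases. Between them and clr4 stood a long terminal repeat, SPLTRB.13 (458478 to 458824, 347 bases, plus strand), a retrotransposon remnant 67 bases from the annotated clr4 start. The nearest such repeat was 38576 bases away at swi6, 48570 at mst2 and 30289 at set1. No protein-coding gene lay within 2000 bases upstream of clr4.

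The swi6 gene (SPAC664.01c, chromosome I, 1702406 to 1704098, minus strand) was the shortest of the 4 at 1693 bases, close to the median of 1773 bases for protein-coding genes. It had 987 coding bases without an intron. Its 5' untranslated part of 97 bases equalled the median of the 4514 genes with one. Its 3' untranslated part was 609 bases, a length reached by 17.3% of genes. No annotated gene overlapped any part of it, whereas 3 of 4 regulators and 91.1% of protein-coding genes had such an overlap somewhere in the gene.

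The swi6 surroundings held 9 genes within 2000 bases but left the gene itself clear. Downstream were SPNCRNA.2760 on the same strand at 88 bases and SPNCRNA.177 on the opposite strand at 134 bases. SPAC824.09c, annotated as a GTPase-activating protein, followed at 782 bases, with the lncRNA genes SPNCRNA.2759 and SPNCRNA.2758 on its opposite strand. Upstream, a lysine tRNA gene with an intron, SPATRNALYS.01 (1704582 to 1704664, 83 bases), lay 483 bases from swi6 on the opposite strand. Behind it came arp8, for an actin-like protein of the Ino80 remodeller, at 716 bases, with SPNCRNA.2761 and SPNCRNA.2762 over it. Measured from the coding span, the nearest genes were 580 bases upstream (the tRNA gene) and 697 bases downstream (SPNCRNA.2760).

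The mst2 gene (SPAC17G8.13c, chromosome I, 2363499 to 2366934, minus strand) was 3436 bases long with 1224 coding bases, or 35.6% of its length. It was the only regulator of the 4 with introns, so 1 of 4 had a coding intron, against 46.5% of protein-coding genes. The 2 introns measured 116 and 47 bases, and the coding span was 1387 bases. The 5' untranslated part was 101 bases and the 3' untranslated part 1948 bases, a length reached by 2.88% of genes.

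Both splice junctions of each intron are shown because these are the only introns in the set. They come from ASM294v3, minus strand, with the first 6 and the last 2 intron bases in capitals. Intron 1 has its donor at I:2366366-2366395 and its acceptor at I:2366260-2366289. Intron 2 has its donor at I:2366160-2366189 and its acceptor at I:2366123-2366152.
mst2 intron 1 donor: ctacaaaggcacaagGTAAACaacttttca
mst2 intron 1 acceptor: tgaatttacggactaacataatcAGatgaa
mst2 intron 2 donor: ggtcaacggcaaccgGTAAGTaatttttta
mst2 intron 2 acceptor: tatacttattgatgtttttccttAGatata
Of 5048 coding introns of protein-coding genes in ASM294v3, 1385 (27.4%) began with the letters GTAAGT of intron 2, read on the gene's own strand. The letters GTAAAC of intron 1 began 20 of them (0.396%). Intron 1 was also long, with 16.2% of introns reaching 116 bases, while the 47 bases of intron 2 were below the median of 55.5.

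The mst2 gene lay entirely inside sec3 (SPAC17G8.12, 2363286 to 2367055, plus strand), which reads the other way. Of the 4 regulators 1 was enclosed in this way by another protein-coding gene, against 3.97% of protein-coding genes. The pair mirrored each other: the 3' untranslated part of mst2 held all 1827 coding bases of sec3, and the 3' untranslated part of sec3 (1661 bases) held the whole mst2 coding span. The 2 coding spans did not overlap and were 52 bases apart at their stop codons. A 3' untranslated part that holds another gene's coding sequence was found in 2 of 4 regulators (clr4 and mst2), against 5.52% of genes. A coding span wholly inside an untranslated part of another gene was found in 1 of 4 (mst2), against 5.55%. Across the genome 30 gene pairs enclosed each other's coding sequence in this reciprocal way. Lengths of 3' untranslated parts are set by where the annotation ends each transcript.

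A deletion of the mst2 coding span would remove 1387 of the 1661 bases (83.5%) of the 3' untranslated part of sec3 and 0 of its coding bases. A deletion of the whole annotated mst2 gene would remove all 1827 coding bases of sec3. Of the other neighbours, pck1, for a kinase like protein kinase C, lay 205 bases upstream, with its 3' end facing the mst2 start. SPNCRNA.3061 lay 26 bases downstream, the lncRNA gene prl59 at 727 bases and imt3, for a mannosyltransferase, at 1253 bases.

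The set1 gene (SPCC306.04c, chromosome III, 410486 to 414140, minus strand) had the longest coding sequence, 2763 bases without an intron, exceeded or equalled by 9.31% of genes. Coding bases made up 75.6% of its 3655 bases, the highest share of the 4. Its 5' untranslated part of 420 bases was also the longest of the 4, a length reached by 8.71% of genes. Its 3' untranslated part of 472 bases was the shortest of the 4 and still above the median of 261.

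The antisense lncRNA gene SPNCRNA.6837 (410961 to 411572, plus strand) lay wholly inside the set1 coding span. Its 612 bases began 3 bases in from the stop codon end and covered 22.1% of the span. A coding-span deletion would thus take 100% of it. No other gene overlapped set1. Upstream lay SPNCRNA.6838 on the opposite strand at 159 bases and ins1, for an INSIG domain protein, at 209 bases. Downstream lay SPNCRNA.6836, also on the opposite strand, at 149 bases and cnd2, for a condensin subunit, at 201 bases. From the end of the coding span these distances were 579, 629, 621 and 673 bases.

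**Figure D2:**
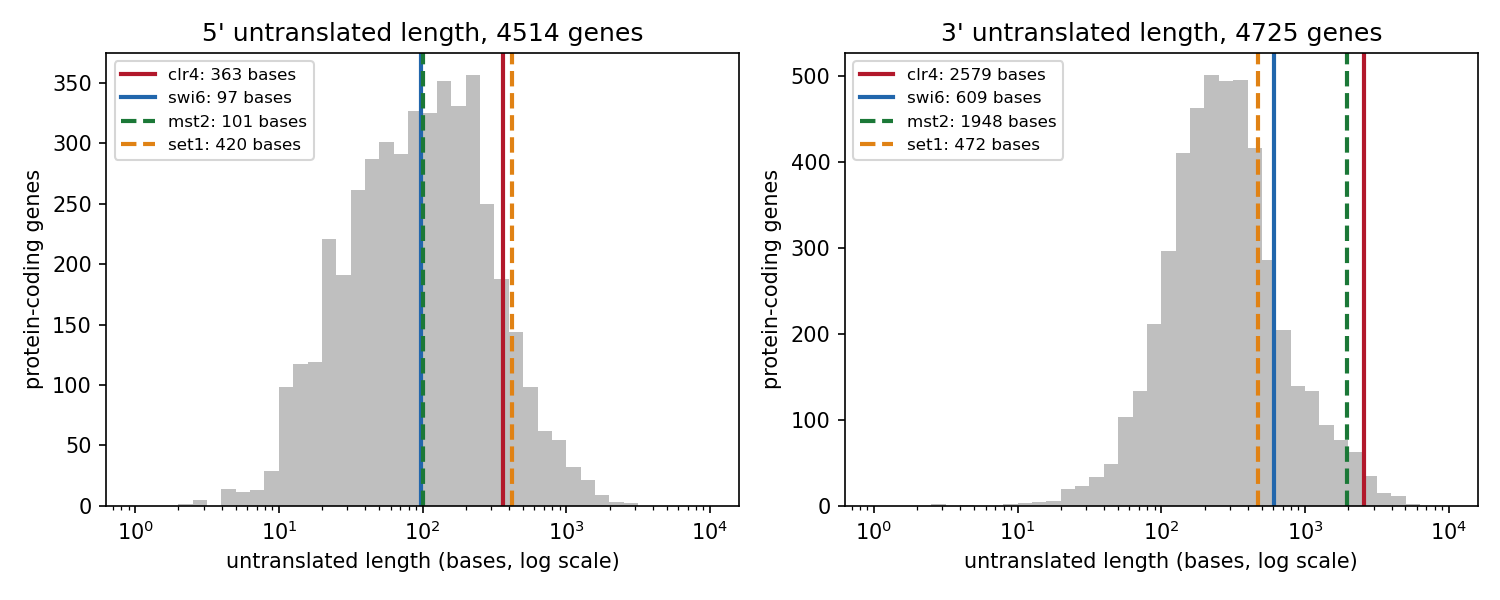
Number of protein-coding genes by 5' (left, 4514 genes) and 3' (right, 4725 genes) untranslated length in bases on a log axis, with the 4 regulators as vertical lines. The 5' lengths of swi6 (97 bases) and mst2 (101 bases) fall at or near the median of 97. The 3' lengths of clr4 (2579 bases) and mst2 (1948 bases) fall in the upper tail. All lengths are from the endogenous-site annotation. In the ectopic-site annotation the 5' lengths were 72 bases at swi6 and 275 at mst2, against a median of 172 over 4272 compared genes.

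Together the 4 genes had 28 neighbours that overlapped them or lay within 2000 bases: 18 lncRNA genes, 9 protein-coding genes and 1 tRNA gene. Of these, 15 lay on the opposite strand, 12 of them lncRNA genes. The number was 9 at clr4, 9 at swi6, 5 at mst2 and 5 at set1, against a median of 7 for protein-coding genes (quartiles 5 and 8). This order did not hold in the second deposited annotation, with the reporter at the ectopic site, which had 5 genes at clr4, 4 at swi6, 7 at mst2 and 3 at set1. The count at mst2 there includes nested entries: SPNCRNA.77, prl59 and SPNCRNA.78 all lay inside SPNCRNA.817 (2362324 to 2362771). The endogenous-site annotation lists that stretch as a single gene, prl59. The farthest genes inside the window lay at 1058 bases (clr4), 1772 (swi6), 1253 (mst2) and 209 (set1), and the nearest outside at 2377, 2243, 2152 and 2057 bases.

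**Figure D3:**
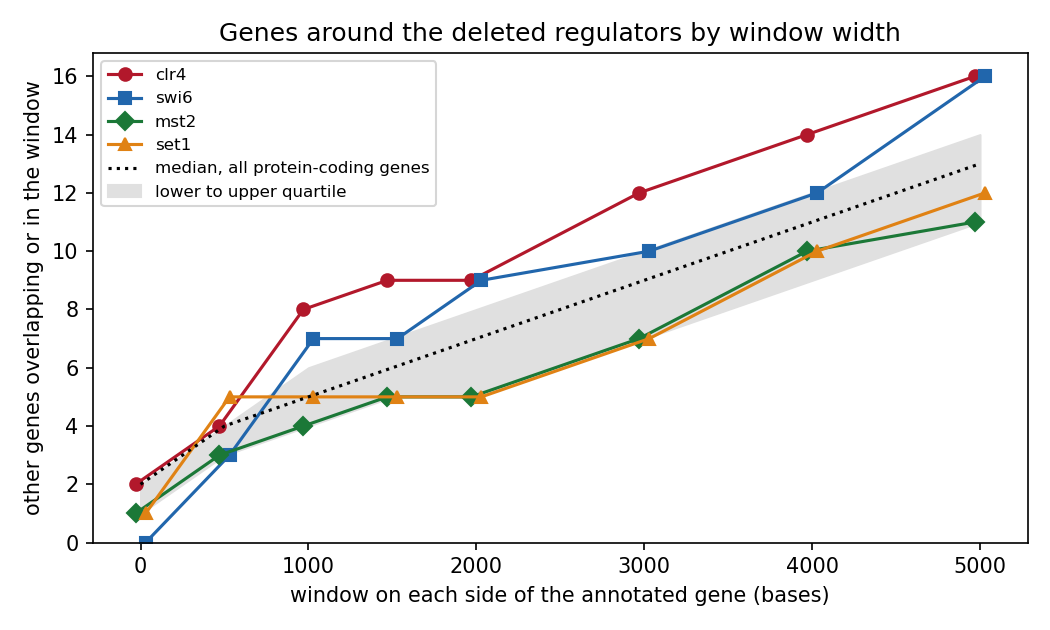
Other genes that overlapped each regulator or lay in a window on each side of it, by window width in bases, with points of different genes moved slightly apart sideways. With 2000 bases clr4 and swi6 had 9 genes and mst2 and set1 had 5, against a median of 7, and swi6 alone started at 0. All these counts are from the endogenous-site annotation. In the ectopic-site annotation mst2 had the most genes, 7, but some of them were entries nested inside another.

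That second annotation, which carries the reporter in place of ura4, placed the 5' ends of all 4 genes elsewhere. The 5' untranslated lengths of clr4 were 363 bases in the endogenous-site annotation and 440 in the ectopic-site annotation. Those of mst2 were 101 and 275 bases, and those of set1 420 and 512 bases. For swi6 the order was turned, with 97 and 72 bases. All 3' untranslated lengths and coding lengths were equal. This was the general pattern: among 4272 genes with the same coding length and a 5' untranslated part in both files, 82.1% had the shorter one in the endogenous-site annotation and 0.632% had equal ones. The median 5' length of these genes was 101.5 bases in the endogenous-site annotation and 172 in the ectopic-site annotation. Among 4608 genes compared in the same way at the 3' end, 99.8% were equal. The ends in the endogenous-site annotation equalled those of ASM294v3 for clr4, swi6 and mst2, and set1 stood 1807 bases lower, with the same lengths.

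These 5' ends changed some overlaps. The clr4 gene lay 67 bases from the long terminal repeat in the endogenous-site annotation and overlapped it by 10 bases in the ectopic-site annotation. The mst2 gene had all 3436 bases inside sec3 in the endogenous-site annotation and 3557 of 3610 bases in the ectopic-site annotation. Its distance to pck1 was 205 bases in the endogenous-site annotation and 31 bases in the ectopic-site annotation. The endogenous-site annotation listed 3 genes over the 4 coding spans and the ectopic-site annotation 1, sec3. The share of all protein-coding genes overlapped in the ectopic-site annotation is not given here. Whether the lower count is usual there is therefore not known. Non-coding RNA genes numbered 7195 in the endogenous-site annotation and 1566 in the ectopic-site annotation, which listed neither SPNCRNA.4728 nor SPNCRNA.6837. Overlap with antisense lncRNA genes at clr4 and set1 thus rested on 1 of the 2 deposited annotations and on ASM294v3. For these 4 genes ASM294v3 has the same lengths as the endogenous-site annotation, so it may not be a separate source.

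**Figure D4:**
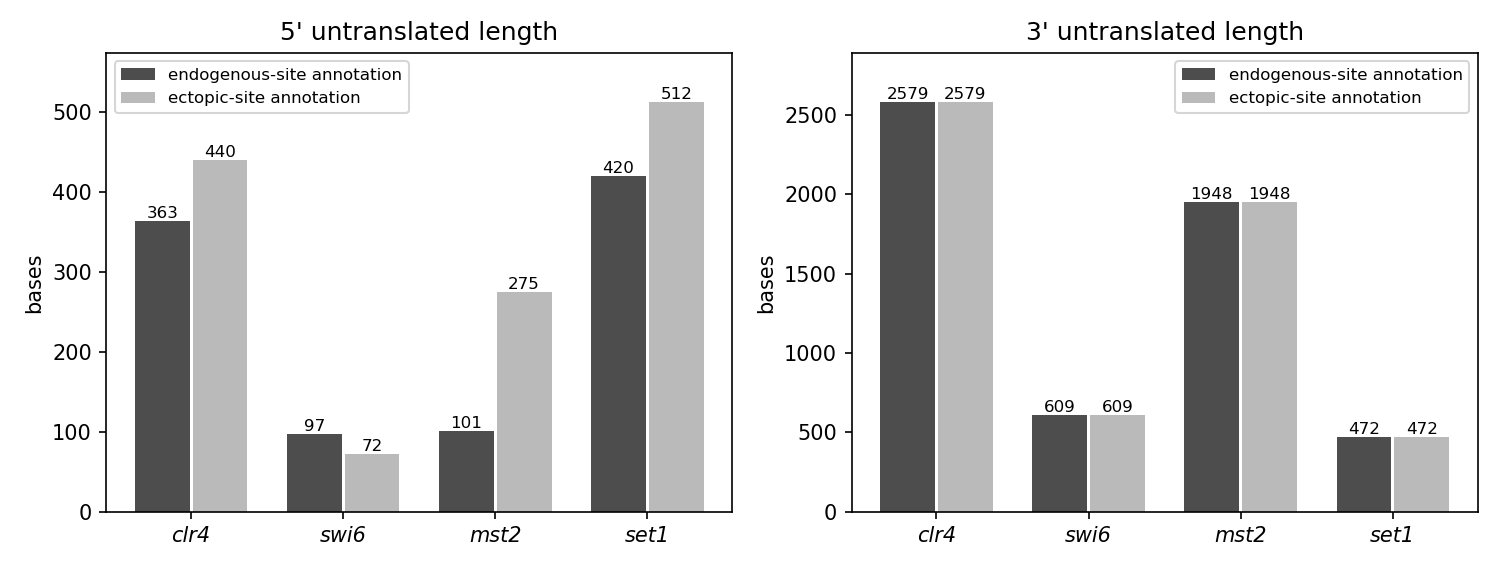
Untranslated lengths in bases at the 5' end (left) and the 3' end (right) of each gene, with the endogenous-site annotation in dark bars and the ectopic-site annotation in pale bars. The 5' bars differ for all 4 genes, with 97 against 72 bases at swi6 and 101 against 275 at mst2, and the 3' bars are equal.

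Counted by genotype, coding-span deletions would remove 5137 bases in swi6D mst2D set1D, 4150 in mst2D set1D, 3750 in swi6D set1D, 2374 in swi6D mst2D, 1473 in clr4D and 987 in swi6D, against 0 in WT. They would touch 2 other genes (sec3 and SPNCRNA.6837) in swi6D mst2D set1D and in mst2D set1D. In swi6D mst2D they would touch sec3, in swi6D set1D SPNCRNA.6837 and in clr4D SPNCRNA.4728. The swi6D strains would have no other gene touched. These counts use the endogenous-site annotation. In the ectopic-site annotation only sec3 lay over a coding span. There clr4D and swi6D set1D would touch no other gene, and each genotype with mst2D would touch sec3 alone. The clr4D and mst2D set1D libraries were all from the ectopic site. By libraries, 16 of 24 carried swi6D, 10 mst2D, 10 set1D and 2 clr4D. The sec3 end was thus touched in 10 libraries under this assumption, and no value of these libraries was examined for it.

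The 19 listed genes that act with the 4 regulators were all found. Of these, 18 of 19 had a coding span overlapped by another gene, against 81.7% of protein-coding genes. An opposite-strand non-coding RNA gene lay over 15 of 19, against 71.3%, and a protein-coding gene over 4 of 19, against 14.8%. These differences from the shares over all genes were not tested. Rik1, Raf2 and Cul4 work with Clr4 in an ubiquitin ligase complex, and Stc1 links it to RNAi. In this group rik1 and stc1 had 100% of the coding span under opposite-strand genes, raf2 31.8% and cul4 4.76%. Of the chromodomain genes, chp2, which encodes the second HP1 protein, had 77.5% and chp1 2.74%, against 0% for swi6.

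Of the 6 other Mst2 complex genes, 6 were overlapped by an antisense non-coding RNA gene, against 71.3% of all genes, and 0 by a protein-coding gene, against 14.8%. Among so few genes a count of 0 is near that share. The covered share ran from 46.5% (nto1) to 100% (pdp3, ptf2 and tfg3). Of the 7 other Set1 complex genes, 6 were overlapped, against 81.7% of all genes. The exception was spp1, with 0%, and swd2 had 0.931%, while ash2, swd1 and sdc1 had 100%, against 22.1% for set1. Coding introns occurred in 8 of the 19 listed genes, near the 46.5% of all protein-coding genes. Their median 3' untranslated length was 193 bases in the 18 genes with one (range 30 to 739), so the 2579 bases of clr4 and the 1948 of mst2 lay beyond all of them.

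**Figure D5:**
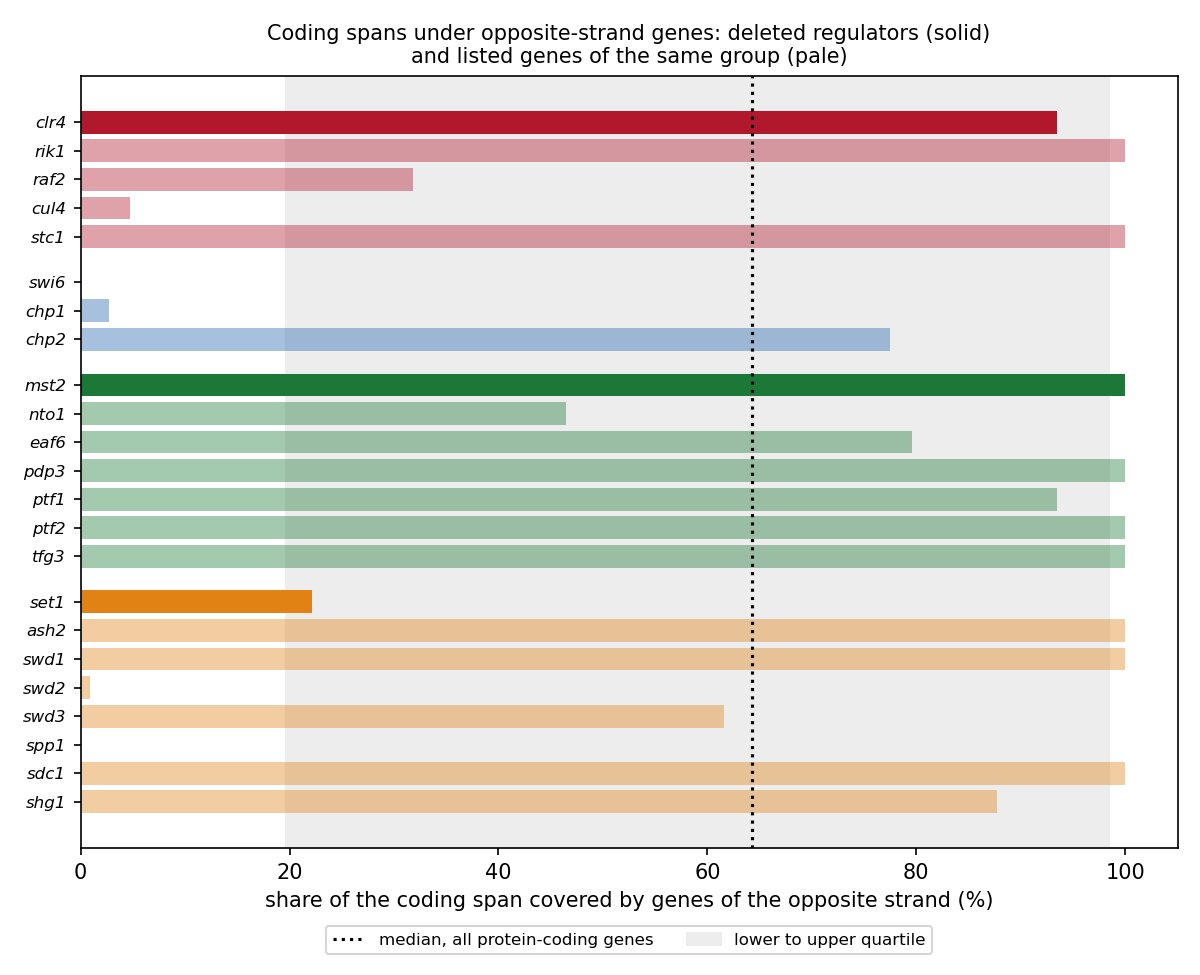
Share of each coding span, in percent, covered by genes of the opposite strand, for the 4 regulators (solid bars) and the 19 listed genes of the same groups (pale bars), with the median of all protein-coding genes (64.3%) as a dotted line. The bars of mst2 (100%) and clr4 (93.5%) are long, that of set1 (22.1%) is short, and swi6 and spp1 have none. A share at least as high was found in 23.1% (mst2), 29.4% (clr4) and 73.7% (set1) of protein-coding genes.

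Base composition differed between the stretches that lie over another gene's coding sequence and the rest. In ASM294v3 the 3' untranslated part of clr4 had 42.7% GC over the 1956 coding bases of meu6 and 31.8% in its other 623 bases. That of mst2 had 40.0% over the 1827 coding bases of sec3 and 23.1% in its other 121 bases. The 3' untranslated parts of swi6 (31.0%) and set1 (28.8%), which cover no coding sequence, were near the median of 29.5% for all genes. Coding sequences had 41.4% (clr4), 40.0% (swi6), 36.3% (mst2) and 38% GC (set1), against a median of 39.6%.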

How the data were processed

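Trimmomatic and BWA are named for the reads in the submitters' processing notes, without versions, and the build used for alignment is not named there. The 2 deposited files are annotations edited by the authors, with feature starts and ends in bases counted from 1. PomBase is the source given in the endogenous-site annotation, and Geneious 7.1.5 wrote the ectopic-site one, as its header states. They hold 0 filled score fields and no value for any library, so read depth cannot be read from them. Their names follow the position of the reporter in each.

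Genes were read with their first transcript (8 protein-coding genes had 2). Untranslated lengths are sums of annotated parts, introns are gaps between coding parts, and overlap means at least 1 base. A gene counted as near with its edge inside 2000 bases of the annotated gene. Shares use all 5113 protein-coding genes, or those with the part annotated. Genes were matched to RefSeq's ASM294v3 annotation by identifier, and sequences were read there. Both gene ends equalled those of ASM294v3 for 2332 of 2334 matched protein-coding genes on chromosome I, 850 of 1863 on II and 36 of 914 on III. These are coordinates, so a gene shifted as a whole counts as unequal. The set1 gene was shifted by 1807 bases at both ends with the same lengths. The overlap search was tested on simulated data. Python 3.11.15, numpy 2.4.6 and matplotlib 3.10.9 were used.

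The named genes were the 4 regulators, their neighbours and 19 listed partners. Members and lists were chosen with earlier results of these data known. Alternatives changed the window, the span, the kind and strand of neighbour, the minimum overlap and the annotation.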

Additional observations from a re-analysis of the deposited data

How the results depend on the processing

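Of 21 alternatives to the 5 totals over the 4 genes, 16 kept the total (counts within 1.5 times, lengths exactly) and 5 moved it. The ASM294v3 alternatives could hardly differ, because its models of these 4 genes have the same lengths as in the endogenous-site annotation. Untranslated lengths taken from the gene ends and introns counted over the whole transcript could not differ either. These genes have no intron outside the coding sequence. The 28 neighbours, 19 in the ectopic-site annotation, counted as kept, although clr4, swi6 and set1 each moved. The 3 genes over the coding spans became 1 with protein-coding neighbours alone (sec3) and 1 in the ectopic-site annotation, which lists fewer non-coding genes. The 28 neighbours became 55 with 5000 bases on each side and 9 with protein-coding genes alone. The summed 5' untranslated length of 981 bases became 1299 in the ectopic-site annotation, and the cause was not tested. For single genes, 62 of 84 alternatives kept the value and 22 moved it. No paired analysis was possible because the 2 annotations hold no value for any library, so no result came from a test. Read depth is unknown and bears on no value here.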

Other observations

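All 4 regulators lay on the minus strand, which holds 50.4% of the 5113 protein-coding genes. The swi6 and mst2 genes share chromosome I, 659400 bases apart. The set1 gene shares chromosome III with the ectopic reporter, 295133 bases from it in the ectopic-site annotation. The clr4 gene shares chromosome II with the endogenous reporter, 1676657 bases from it. The identifier of that reporter in the annotation includes ura4, whereas the strains are described with ade6+. The centromere of the same chromosome was 1144007 bases away for clr4, 2049588 for swi6, 1386752 for mst2 and 654956 for set1.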
